A study of Mus musculus with 15 samples.

Results

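The 10 genes described here are immediate-early genes of neurons: Fos, Fosb, Junb, Arc, Egr1, Egr2, Egr4, Npas4, Nr4a1 and Ier2. They were taken by name out of the 43629 genes listed in the count tables. No cutoff on a measured value was used, but earlier results of these data were known when they were chosen. All 10 passed the filter on low counts that left 15864 genes for testing. The study asked whether every-other-day feeding (EOD, labelled IF by the submitters) changes ageing in mice, and measured RNA in whole, snap-frozen brain, 1 library per mouse. Young mice were 3 months old and old mice 24 months old. The 4 groups were young mice fed ad libitum (AL, n = 4), young EOD mice (n = 3), old AL mice (n = 4) and old EOD mice (n = 4). All 15 were wildtype C57BL/6J males of 1 cohort, on the same chow and randomly assigned to AL or EOD, so the young EOD mice had been on the diet for a short time and the old EOD mice for most of their lives. A whole brain mixes all regions and cell types, and the hour and feeding day for each brain are not given in the sources used here, which state only a general practice of starting measurements on mornings that followed a day with food.

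Immediate-early genes are switched on within minutes of a stimulus without any new protein having to be made, and their transcripts disappear again soon afterwards. In the brain they follow synaptic activity: calcium entering the cell activates kinases that phosphorylate CREB, bound at cyclic AMP response elements, and the ternary complex factors that sit with SRF at CArG boxes, and both act on the promoters of these genes. Their level in a resting brain therefore follows what an animal was doing, sensing or undergoing shortly before death, and they are widely used as markers of recently active neurons. Fos, Fosb and Junb are subunits of the AP-1 transcription factor, Egr1, Egr2 and Egr4 are zinc finger transcription factors, Npas4 is a transcription factor that responds to calcium influx and regulates inhibitory synapses, and Nr4a1 is an orphan nuclear receptor. Arc is a cytoskeleton-associated protein of dendrites that takes part in the internalization of AMPA receptors, and Ier2 is a small nuclear protein.

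The sequences upstream of 4 of the genes are shown because they carry the element through which activity is known to reach this gene class. RefSeq's table for GRCm38.p6 held promoters for 7 of the 10 genes, Fos, Fosb, Junb, Egr2, Egr4, Npas4 and Nr4a1, and not for Arc, Egr1 or Ier2. The windows are the 250 bases before the gene start, read on the gene's strand from 5′ to 3′, and capitals mark TGACG or its reverse complement, the core of the cyclic AMP response element. They lie at chr12:85473640-85473889 on the plus strand for Fos, chr6:85513590-85513839 on the minus strand for Egr4, chr19:4989972-4990221 on the minus strand for Npas4 and chr15:101266596-101266845 on the plus strand for Nr4a1.
Fos: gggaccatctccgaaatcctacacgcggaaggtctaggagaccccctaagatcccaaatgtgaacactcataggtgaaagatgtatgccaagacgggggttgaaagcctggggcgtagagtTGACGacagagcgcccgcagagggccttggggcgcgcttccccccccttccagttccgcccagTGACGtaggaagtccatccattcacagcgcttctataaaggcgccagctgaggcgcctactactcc
Egr4: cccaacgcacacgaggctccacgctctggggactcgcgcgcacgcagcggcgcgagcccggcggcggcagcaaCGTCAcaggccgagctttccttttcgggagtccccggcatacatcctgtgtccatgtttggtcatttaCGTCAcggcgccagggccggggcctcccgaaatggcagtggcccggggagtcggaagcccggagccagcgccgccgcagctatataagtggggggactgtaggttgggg
Npas4: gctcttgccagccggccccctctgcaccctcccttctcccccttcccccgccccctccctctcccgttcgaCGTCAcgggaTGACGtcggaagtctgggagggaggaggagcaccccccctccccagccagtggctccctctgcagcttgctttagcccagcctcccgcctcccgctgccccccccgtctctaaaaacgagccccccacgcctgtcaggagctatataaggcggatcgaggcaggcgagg
Nr4a1: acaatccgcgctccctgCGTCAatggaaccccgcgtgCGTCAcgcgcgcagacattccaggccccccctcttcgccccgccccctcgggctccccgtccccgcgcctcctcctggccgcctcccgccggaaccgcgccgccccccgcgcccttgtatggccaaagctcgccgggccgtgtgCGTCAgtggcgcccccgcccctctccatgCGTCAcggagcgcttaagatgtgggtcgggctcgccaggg

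In these windows the core element lies at -129 to -125 and -66 to -62 relative to the start of Fos, at -177 to -173 and -109 to -105 in Egr4, at -179 to -175 and -169 to -165 in Npas4, and at -233 to -229, -213 to -209, -69 to -65 and -40 to -36 in Nr4a1. Searched on both strands, TGACG was found in 6 of the 7 windows, all but that of Egr2, and in 17.8% of the 32851 upstream windows of that length in the table. The full palindrome TGACGTCA, which contains the core, was in 0 of the 7 windows against 1.55% of all windows, and the CArG box was in 0 of the 7 against 1.47%. The EGR site GCGNGGGCG was in the windows of Fosb and Nr4a1 against 4.7% of all windows, TATAAA was in that of Fos against 12.4%, and the AP-1 site TGANTCA was in 0 of the 7 against 6.75%. These are matches of letters in a short window, and no binding was measured.

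Libraries held between 5198748 and 13610729 counts assigned to genes. Young AL mouse 3 had the most counts but only 17280 genes with at least 1 count, against 19054 to 20880 in the other 14 mice, and its summed level of choroid plexus and ependymal markers was 319.9 CPM (a gene's count relative to its library's total, with the totals scaled by TMM) against 449.2 to 1210 CPM. Its 10 neuron markers summed to 11660 CPM against 9570 to 10650 CPM, and none of them was at 0 in any mouse, so the tissue label of brain held for all 15 libraries. The libraries came from 3 sequencing lanes, named in the file headers, with 5, 6 and 4 mice. Because young AL mouse 3 stands apart, the comparisons of age and diet are given with and without it, and levels and correlations for the other 14 mice unless stated.

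The 10 genes spanned a wide range of levels, and their order was led by Egr1 and Arc. Per kilobase of gene length, over the 14 mice, Egr1 averaged 35.06 ± 10.02 CPM (SD) and Arc 31.3 ± 14.7 CPM, but Egr1 exceeded Arc in only 8 of the 14 mice, so the order of the top pair is not set beyond the spread between mice. Nr4a1 averaged 18.6 ± 7.36 CPM per kilobase, below Arc in 13 of 14 mice. Fos followed at 8.62 ± 4.17 CPM per kilobase, below Nr4a1 in all 14.

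The other 6 genes lay lower and closer together. Junb averaged 4.13, Fosb 3.16, Npas4 2.31, Ier2 1.60, Egr4 1.43 and Egr2 1.30 CPM per kilobase. Each exceeded the next in 10 to 12 of the 14 mice, and the ranges of every neighbouring pair overlapped. The deeper a gene was counted, the smaller is its relative counting error. The raw counts per mouse ran from 679 to 2540 for Egr1 and from 224 to 2151 for Arc. Over the 14 mice they ran from 13 to 66 for Egr4 and from 12 to 57 for Ier2. The spread between mice comes on top of this error and did not follow depth. The SD of log2 CPM within groups was 0.93 for Arc and 0.29 for Egr4.

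**Figure D1:**
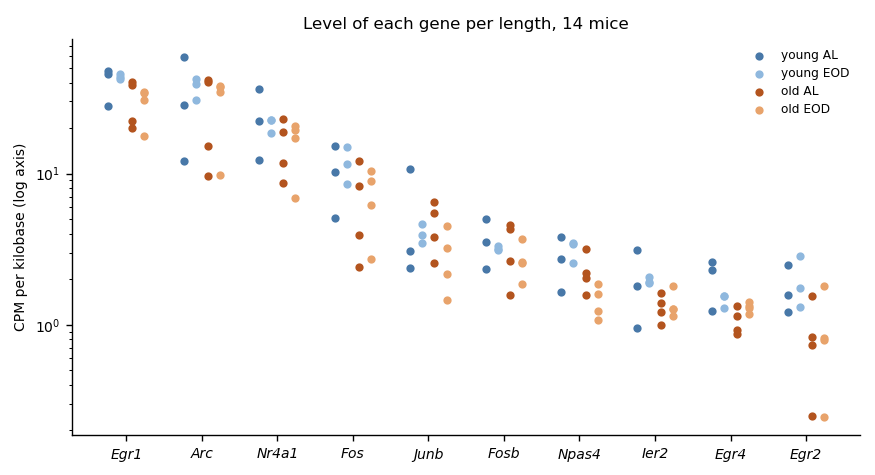
Level of each gene in CPM per kilobase of gene length (log axis), 1 point per mouse for 14 mice, coloured by group and ordered by the mean. Egr1 and Arc share the top of the range and overlap, Egr2 has the lowest mean, and in every gene the 4 groups overlap or lie close together beside the distance between the genes.

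Within the groups, mice of the same age and diet differed more in these genes than in most genes tested. The SD of log2 CPM within groups, over 14 mice, had a median of 0.57 over the 10 genes against 0.18 over all genes tested. Arc stood at the 99.7th percentile of all genes with an SD of 0.93, Egr2 at the 99.5th with 0.86 and Fos at the 99.4th with 0.83. Egr1 stood at the 89.0th, Ier2 at the 87.9th and Npas4 at the 87.55th. Egr4, the least spread of the 10 over these mice, stood at the 75.6th with 0.29. These percentiles are not matched for level, and genes with few counts also carry more counting error. With young AL mouse 3 included, the median SD of the 10 was 0.94 against 0.20.

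Arc shows this spread in all groups but the young EOD mice. In young AL mice its level was 37.2, 86.6, 21.7 and 180.0 CPM, and in young EOD mice 93.4, 119.0 and 130.0 CPM. In old AL mice it was 127.6, 29.4, 122.6 and 46.5 CPM, and in old EOD mice 106.6, 114.1, 30.0 and 115.9 CPM. Old AL mice thus fell into a high and a low pair, old EOD mouse 3 lay far below the other mice of its group, and the 3 young EOD mice were close together.

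Fos, the classical marker of recently active neurons, followed the same mice. Its level was 11.9, 24.1, 1.21 and 35.98 CPM in young AL mice and 20.0, 27.2 and 35.2 CPM in young EOD mice. It was 28.6, 5.64, 19.5 and 9.16 CPM in old AL mice and 24.4, 21.1, 6.45 and 14.5 CPM in old EOD mice. Old AL mice 1 and 3 were again the high ones and old EOD mouse 3 again the lowest of its group.

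Nr4a1 behaved in the same way, at 30.4, 54.8, 19.0 and 89.7 CPM in young AL mice, 46.2, 55.9 and 55.9 CPM in young EOD mice, 56.5, 21.5, 46.5 and 29.0 CPM in old AL mice and 48.2, 51.3, 16.9 and 42.5 CPM in old EOD mice. Ier2, the least abundant of the 10 by CPM, ran from 0.604 to 4.77 CPM in young AL mice, from 2.88 to 3.15 CPM in young EOD mice, from 1.51 to 2.46 CPM in old AL mice and from 1.75 to 2.73 CPM in old EOD mice. In all 10 genes the highest mouse of the young AL group was mouse 4.

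The spread was unequal between the groups. The coefficient of variation between mice had a median over the 10 genes of 12.8% in young EOD mice, 33.6% in old EOD mice and 39.8% in old AL mice. In young AL mice it was 75.5% with all 4 mice and 44.5% without mouse 3. Fosb gave the narrowest group, 11.99 ± 0.381 CPM (SD, n = 3) in young EOD mice, against 12.2 ± 5.28 CPM (n = 4) in old AL mice. The young EOD group is the smallest, and the difference in spread between groups was not tested.

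**Figure D2:**
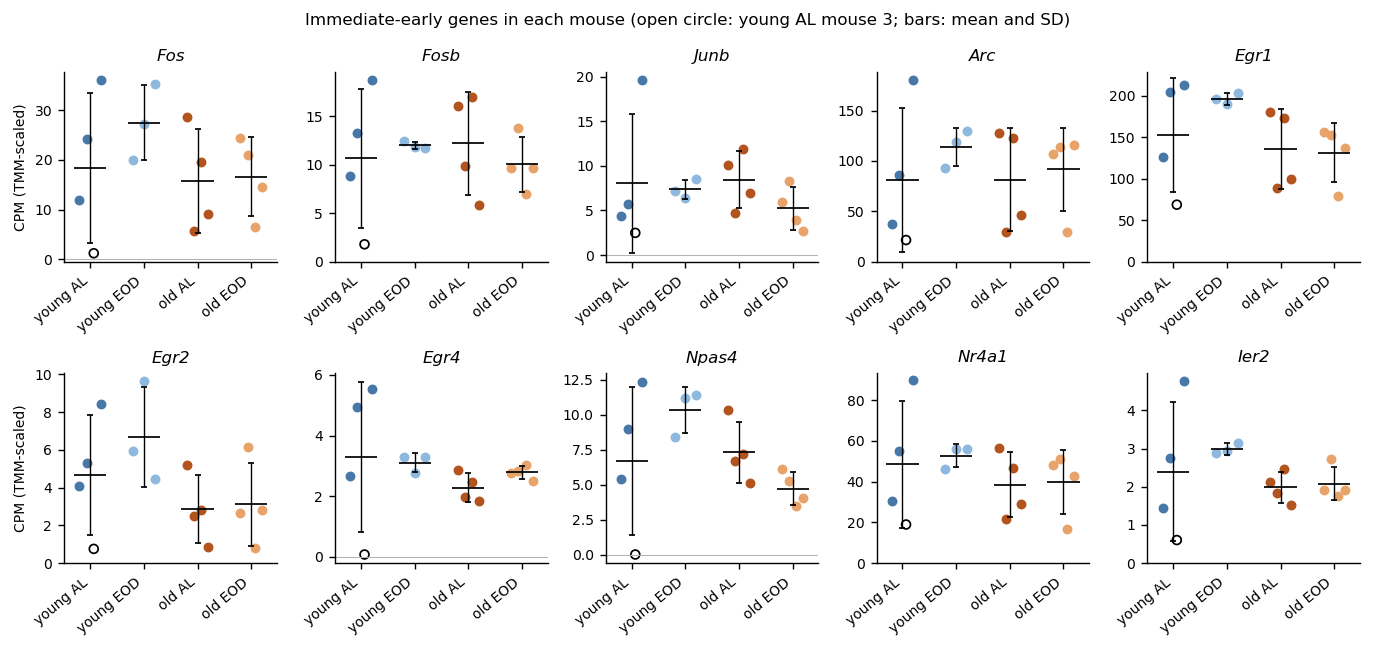
CPM (TMM-scaled, linear axes) of each gene in each of the 15 mice by group, with the group mean and SD as bars over all mice of the group and young AL mouse 3 as an open circle. The open circle is the lowest of its group in every panel, young AL mouse 4 the highest, and the 3 young EOD mice lie close together in most panels.

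The 10 genes rose and fell together from mouse to mouse. For each mouse and gene the group mean of log2 CPM was subtracted, and over 14 mice all 45 pairs of genes correlated positively, with a median Pearson's r of 0.74 and a median Spearman's rho of 0.75. Over all pairs of genes tested the median r was -0.002, and 1.01% of pairs exceeded the median of these 10 genes. The closest pair was Arc and Nr4a1 (r = 0.98), and the least alike were Egr2 and Egr4 (r = 0.34). Without the 2 mice farthest from the median the median r was 0.76, and with young AL mouse 3 included it was 0.82. The points of each correlation share a library, and so its depth, its RNA quality and the handling of 1 animal.

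Fos, Arc, Egr1 and Nr4a1 formed the tightest set, with pairwise r from 0.946 to 0.984. Egr4 was the most distant from these 4, at 0.57 to 0.61, and was closest to Ier2 at 0.81. Junb was closest to Ier2 as well, at 0.82. These finer differences rested on a few mice. Without the 2 mice farthest from the median of the first gene of each pair, Egr4 was at 0.79 with Fos, 0.81 with Arc, 0.84 with Egr1 and 0.30 with Nr4a1, and Ier2 was at 0.48 with Egr4 and 0.64 with Junb. The pairs among Fos, Arc, Egr1 and Nr4a1 then ran from 0.90 to 0.98. Npas4, which differs from the others in its narrow dependence on neuronal depolarization, correlated at 0.70 to 0.84 with each of the other 9.

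**Figure D3:**
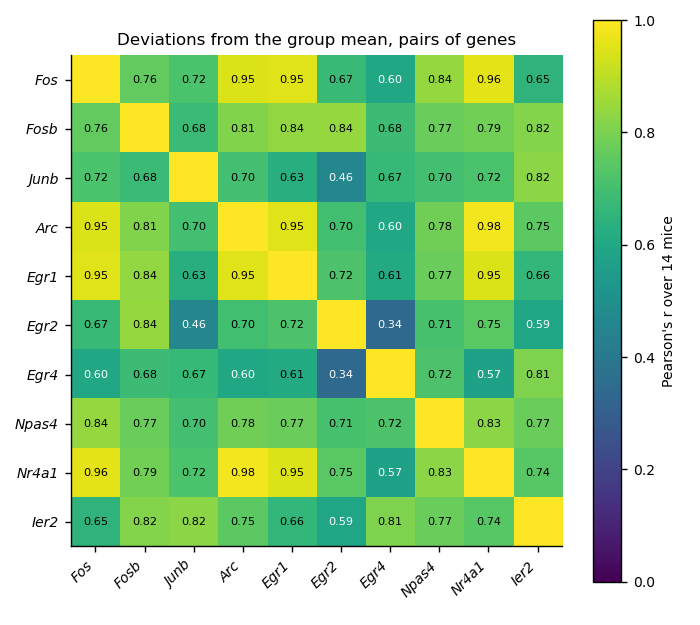
Pearson's r over 14 mice between each pair of the 10 genes, computed on log2 CPM minus the group mean and shown by colour from 0 to 1. All off-diagonal cells are above 0, from 0.34 for Egr2 with Egr4 to 0.98 for Arc with Nr4a1.

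The common deviation could be seen mouse by mouse in 3 of the 4 groups. Young AL mouse 1 was the lowest of the 3 young AL mice other than mouse 3 in 10 of 10 genes, with a mean deviation of -0.72 log2 units, and mouse 4 the highest in 10 of 10, with 0.69. In old AL mice, mouse 1 (0.60) and mouse 3 (0.41) were above the group mean in all 10 genes, whereas mouse 2 was above it in 1 gene (mean -0.49) and mouse 4 in none (mean -0.52). In old EOD mice, mouse 2 was above the group mean in all 10 genes (0.48) and mouse 3 was the lowest in 8 (mean -0.69). The young EOD mice stayed between -0.12 and 0.08.

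**Figure D4:**
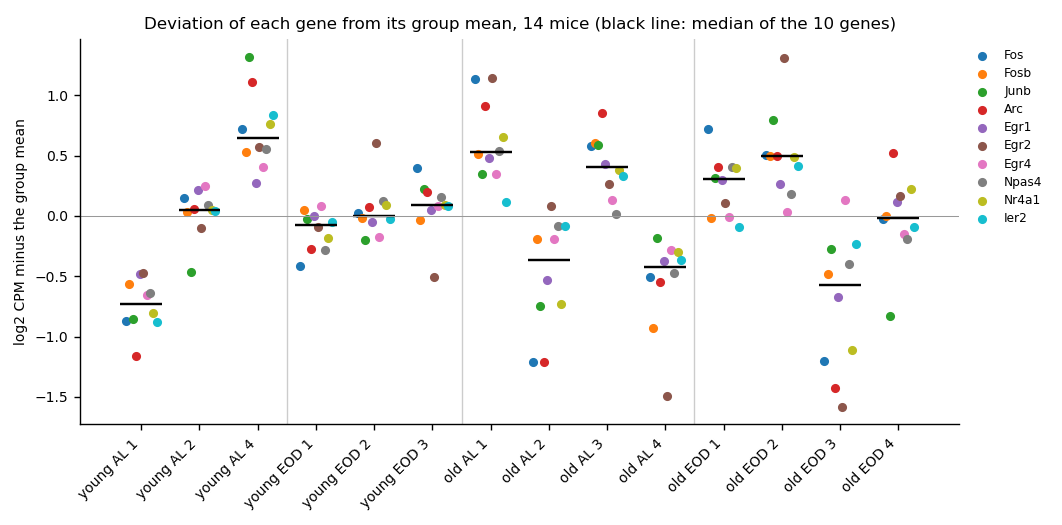
Deviation of log2 CPM from the group mean for each of the 10 genes (coloured points) in each of 14 mice, with the median of the 10 genes as a black line. Young AL mouse 4 and old AL mice 1 and 3 lie wholly above 0, young AL mouse 1 and old AL mouse 4 wholly below it, and the young EOD mice close to it.

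Young AL mouse 3 was the lowest of its group in all 10 genes and the lowest of all 15 mice in 9. Npas4 had no count in that library, which allows a level of up to 0.22 CPM (3 counts, counting error only), whereas the other 14 mice had 38 to 148 counts. Egr4 had 1 count and Fos 16. The median of the 10 log2 ratios of this mouse to the mean of the other young AL mice was -2.52. Given the small number of genes detected in this library, its values are shown but carry no comparison alone, and the part played by RNA quality was not tested.

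Other genes followed the same mice or ran against them. Out of 14027 other genes expressed at a mean log2 CPM of 1 or more, 28 (0.2%) had an r over 0.8 with the mean deviation of the 10 genes over 14 mice. In the opposite direction, 23 (0.164%) had an r under -0.8, led by Abhd13 at -0.92. The 8 most alike were Gpr3, a receptor that raises cyclic AMP constitutively (r = 0.95), Sertad1 (0.90), Ier5l (0.90), Rab40c (0.89), the MAP kinase phosphatases Dusp1 (0.88) and Dusp6 (0.86), Wrb (0.86) and Nab2, a corepressor that binds EGR proteins (0.86). Over all 15 mice the r of these 8 ran from -0.06 for Nab2 to 0.91 for Sertad1. In young AL mouse 3 Gpr3 was at 5.44 CPM and Nab2 at 37.5 CPM, within or above their ranges in the other mice, 2.76 to 8.58 CPM and 22.4 to 32.7 CPM.

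Among 39 other immediate-early genes, 22 had an r over 0.5 with the mean of the 10, and the median was 0.56. Besides both Dusp genes, the closest were Sik1, a kinase induced by cyclic AMP (0.84), Btg2, an antiproliferative factor (0.82), and Ier5 (0.79). Egr3 was at 0.73, Nr4a3 at 0.65 and Nr4a2 at 0.62. Homer1, whose short form is induced by activity but whose gene-level count adds all isoforms, was at 0.35, Jun at 0.28 and Klf6 at -0.55.

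The slower effectors of activity followed in their mean deviation, which correlated at r = 0.83 with that of the 10 genes (0.77 without the 2 farthest mice). Gene by gene their median r was only 0.28, and the lowest was Nrn1 at -0.58. The mean deviation of the other immediate-early genes was at 0.93 (0.88 without the 2 farthest mice). That of the upstream kinases and factors was at -0.29 (-0.09 without these mice). Of 19 effectors tested, 3 had an r over 0.5, Gpr3, Gadd45a (0.60) and Vgf (0.50), and Bdnf was at 0.23. Of 36 upstream genes, 3 had an r over 0.5, namely Nab2, Srf, which encodes the CArG box factor (0.74), and Mapk3, which encodes ERK1 (0.66). Others of this list ran the opposite way, with Mef2a at -0.702, Mef2c at -0.697 and Ppp3cb at -0.557. The mean deviation of 10 heat shock genes correlated with that of the 10 immediate-early genes at r = 0.73, that of 16 clock genes at 0.55 and that of 16 glucocorticoid and fasting response genes at 0.01. Without the 2 farthest mice these were 0.72, 0.33 and 0.07. Per1 was in both the clock list and the list of other immediate-early genes.

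Cell type markers were compared with the pattern in the same way. The r of the markers' mean deviation was -0.30 for 10 pan-neuronal genes, -0.18 for 10 excitatory neuron genes, 0.26 for 8 striatal and 0.35 for 8 cerebellar neuron genes, and -0.06 for 7 hypothalamic and pituitary genes. It was -0.53 for oligodendrocytes, -0.41 for endothelial and mural cells, 0.03 for astrocytes, 0.16 for microglia, 0.21 for choroid plexus and ependyma and 0.33 for blood cells. Several of these values rested on a few mice: without the 2 farthest, astrocytes were at 0.55, excitatory neurons at -0.51 and oligodendrocytes at -0.25. The summed neuron markers ranged from 9802 to 10580 CPM in the 3 young AL mice, from 10030 to 10550 in young EOD mice, from 9570 to 10440 in old AL mice and from 9661 to 10650 in old EOD mice. In bulk tissue, fewer cells of a type and less RNA per cell cannot be told apart.

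Against this spread, age and diet were compared by edgeR's quasi-likelihood test over all genes, with a gene called at a Benjamini-Hochberg adjusted p (FDR) under 0.1. With all 15 mice, 0 of the 10 genes were called in any comparison. The share of all genes called was 1.09% for age in AL mice, 0.29% for age in EOD mice, and 0.0% for diet in young mice, for diet in old mice and for the interaction of age and diet. At an unadjusted p under 0.05, 0 of the 10 passed in each of these 5 comparisons, against 9.52%, 5.74%, 4.14%, 2.58% and 2.28% of all genes. The comparisons share groups with each other, so their values are not independent.

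Old EOD mice compared with young EOD mice had lower fitted values in all 10 genes, against 50.1% of all genes. Npas4 was at 8.42, 11.2 and 11.4 CPM in young EOD mice and at 6.11, 5.23, 3.499 and 4.04 CPM in old EOD mice, and in AL mice at 5.42, 8.98, 0 and 12.4 CPM in the young and 10.3, 6.69, 7.19 and 5.13 CPM in the old. The young and old EOD mice did not overlap, whereas young and old AL mice did. Over 15 mice the log2 fold change in EOD mice was -1.12 (SE 0.57, edgeR, FDR = 0.90).

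Over 14 mice, with a smaller estimate of the spread, the same difference in Npas4 was -1.11 (SE 0.26, 95% interval -1.66 to -0.56), a level of 0.46 times that of young EOD mice, and was called (edgeR, FDR = 0.092). It was the only one of the 10 called there, in a comparison in which 0.484% of all genes were called and 0.0637% were called lower. At an unadjusted p under 0.05, Npas4, Egr1 and Egr2 passed, 3 of the 10 against 7.94% of all genes. The call was narrow: FDR was 0.20 with a replicate block, 0.35 with the sequencing lane as a covariate and 0.1025 when libraries were scaled by their totals alone, and stayed under 0.1 in 5 of the 14 fits that left out a further mouse. Within lanes, the log2 difference was -0.45 in lane 1, with 1 mouse on each side, and -1.08 in lane 2, with 1 old against 2 young, and lane 3 held no young EOD mouse.

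Egr1, which is widely used to map activity, was at 196.5, 189.5 and 203.7 CPM in young EOD mice and at 155.8, 152.7, 79.6 and 137.4 CPM in old EOD mice. Every old EOD mouse was below every young one. The log2 fold change was -0.58 over 15 mice (SE 0.29, edgeR, FDR = 0.89) and -0.58 over 14 (SE 0.23, FDR = 0.50), so the difference was not called. In AL mice Egr1 overlapped, at 125.9, 204.7, 68.9 and 212.5 CPM in the young and 180.5, 89.1, 173.6 and 99.4 CPM in the old.

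Egr1, Npas4 and Ier2 were the 3 genes whose old and young EOD values did not overlap, all lower in the old, against 4.29% of all genes that did not overlap in that direction. For Ier2 the young EOD mice lay between 2.88 and 3.15 CPM and the old between 1.75 and 2.73 CPM, with a log2 fold change of -0.53 (SE 0.45, edgeR, FDR = 0.99). Over 15 mice 0 of the 10 were separated in the opposite direction (4.75% of all genes), and 0 in the other comparisons. There the share of all genes was 1.58% lower and 2.98% higher for age in AL mice, 2.05% and 2.4% for diet in young mice, and 1.36% and 1.23% for diet in old mice. Egr2, a gene also known from myelinating Schwann cells, had a fold change as large as that of Npas4, at -1.11 (SE 0.59, edgeR, FDR = 0.93), but its values of 5.96, 9.63 and 4.47 CPM in young and 2.68, 6.15, 0.8287 and 2.79 CPM in old EOD mice overlapped.

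In AL mice the age comparison depended on young AL mouse 3. With all 15 mice, 7 of the 10 genes had lower fitted values in old AL mice, against 52.4% of all genes, and the log2 fold changes ran from -0.75 for Egr2 to 0.16 for Fosb. Over 14 mice all 10 were lower, against 51.6% of all genes, and 0 were called, against 1.03% of all genes. At an unadjusted p under 0.05, 2 of the 10 passed over 14 mice, Egr2 and Egr4, against 7.25% of all genes.

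Egr4 came closest. It was at 2.65, 4.95, 0.0755 and 5.52 CPM in young AL mice and at 2.86, 1.97, 2.46 and 1.85 CPM in old AL mice. The log2 fold change over 14 mice was -0.97 (SE 0.26, 95% interval -1.51 to -0.44, edgeR, FDR = 0.104, just above the threshold), with young AL mouse 1 inside the range of the old. With all 15 mice it was -0.54 (SE 0.52, FDR = 0.79). In EOD mice Egr4 lay between 2.75 and 3.29 CPM in the young and 2.501 and 3.04 CPM in the old, a difference of -0.16 over 14 mice (SE 0.26, FDR = 0.94).

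Within sequencing lanes the age difference in AL mice had no common direction. The median log2 difference of the 10 genes, old minus young, was 0.51 in lane 1 (1 old, 2 young), with 1 gene lower in the old, and -1.58 in lane 3 (1 old, 1 young), with all 10 lower. In lane 2 the only young AL mouse was mouse 3, and the median was 1.55. In EOD mice it was -0.30 in lane 1, with 7 genes lower, and -0.12 in lane 2, with 8 lower. With 1 to 2 mice on a side these values have no test.

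**Figure D5:**
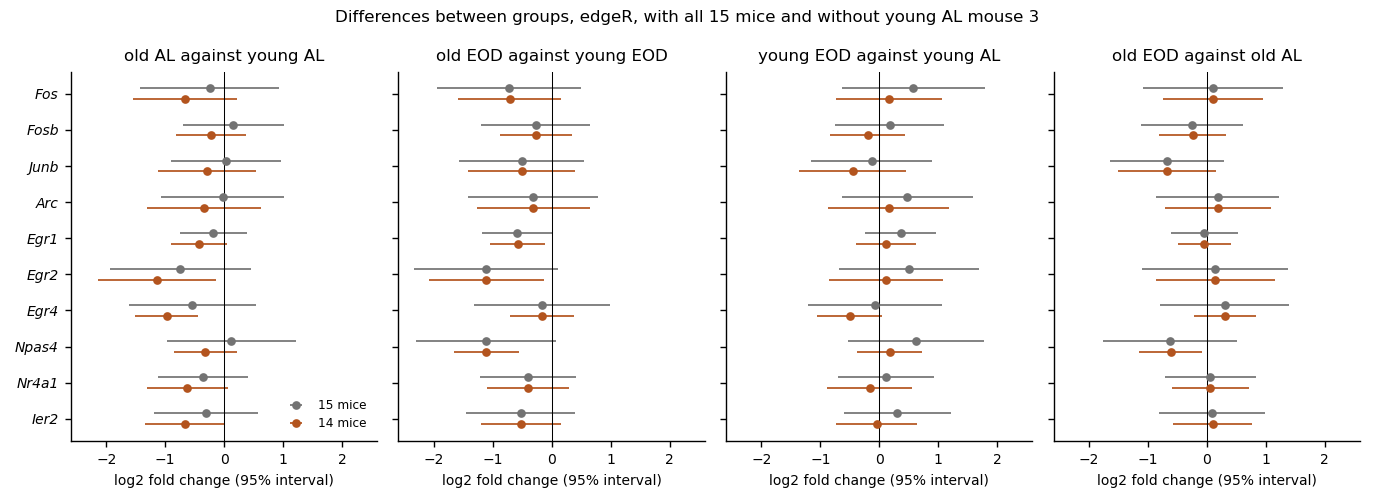
Log2 fold change with its 95% interval (edgeR) for each gene in the 4 comparisons, over all 15 mice (grey) and over the 14 without young AL mouse 3 (orange). All 40 intervals over 15 mice cross 0, and over 14 mice 6 lie below it, those of Egr2 and Egr4 with age in AL mice, of Egr1, Egr2 and Npas4 with age in EOD mice and of Npas4 with diet in old mice. Leaving out the 1 mouse moves the fold changes of the comparisons that contain young AL mice. It also narrows the intervals of the others, since the estimate of spread is shared. The SE of Npas4 goes from 0.57 to 0.26 with age in EOD mice and from 0.55 to 0.25 with diet in old mice.

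In the mean of the age differences of AL and EOD mice, a comparison added after the data were seen, 0 of the 10 genes were called over 15 mice, against 2.3% of all genes, and 1 passed at an unadjusted p under 0.05, Egr2 at -0.93 (SE 0.41, edgeR, FDR = 0.38). Over 14 mice 1 was called, Npas4 at -0.71 (SE 0.18, edgeR, FDR = 0.050), against 2.56% of all genes. This call was lost with the replicate block (FDR = 0.114), with the lane as a covariate (0.103) and without young AL mouse 4 (0.175), young EOD mouse 2 (0.121) or 3 (0.116) or old EOD mouse 4 (0.101). At an unadjusted p under 0.05, 7 of the 10 passed over 14 mice, all lower in old mice, against 5.11% of all genes that passed in that direction. These were Fos, Egr1, Egr2, Egr4, Npas4, Nr4a1 and Ier2, with log2 fold changes from -1.12 for Egr2 to -0.50 for Egr1. Without young AL mouse 4, the highest of its group in all 10 genes, 4 passed, and without each other mouse 5 to 7. Since the 10 genes moved together from mouse to mouse, they do not count as 10 separate observations.

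Markers of cell types differed with age in the same mice. Of 10 excitatory and forebrain neuron markers 0 were called with age averaged over diets, but 10 had lower fitted values in old mice over 15 mice and 9 over 14, with medians of -0.13 log2 units in both, and 4 and 2 passed at an unadjusted p under 0.05, against 11.7% and 11.9% of all genes. The 10 pan-neuronal markers had a median of -0.07 over 15 and -0.04 over 14 mice. Of 9 microglia and macrophage markers 5 were called higher in old mice over 15 mice and 6 over 14. The share of all genes called in either direction was 2.3% and 2.56%. Fitted values were lower in old mice for 1 of the 9 in both, and the medians were 0.36 and 0.35. The part of these shifts in the values of the 10 genes was not tested.

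Feeding regimen was compared at each age. Young EOD against young AL mice had fitted log2 fold changes from -0.50 for Egr4 to 0.18 for Npas4 over 14 mice, with 5 genes lower, against 49.6% of all genes, and 5 higher. The intervals of all 10 included 0, 0 were called, as over all genes (0.0%), and 0 passed at an unadjusted p under 0.05, against 4.01% of all genes. With young AL mouse 3 included, 8 of the 10 were higher in EOD mice, against 50.8% of all genes that were lower, and Npas4 was at 0.62. Fosb, Nr4a1 and Ier2 changed direction with that library, and the other 7 genes kept theirs. In lane 1 the median difference was 0.28 (1 EOD, 2 AL), and in lane 2 the only AL mouse was mouse 3.

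In old mice, Npas4 was lower under EOD, at 4.72 ± 1.18 CPM (SD, n = 4) against 7.33 ± 2.18 CPM (n = 4), a log2 fold change of -0.61 over 14 mice (SE 0.25, 95% interval -1.15 to -0.08, edgeR, FDR = 0.996) that was not called. It was the 1 gene of the 10 that passed at an unadjusted p under 0.05, against 4.02% of all genes. The highest old EOD mouse, at 6.11 CPM, was above the lowest old AL mouse, at 5.13 CPM. Fos was at 16.6 ± 7.91 CPM in old EOD and 15.7 ± 10.4 CPM in old AL mice and Arc at 91.7 ± 41.3 and 81.5 ± 50.8 CPM, so their means lay well inside the spread of either group. Junb was at 5.23 ± 2.45 against 8.42 ± 3.20 CPM, with a log2 fold change of -0.67 (SE 0.40, edgeR, FDR = 0.996). The 95% interval of Arc over 14 mice ran from -0.72 to 1.09, which leaves room for a change in either direction. Its SD within groups was 0.93 log2 units.

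The interaction, the age difference in EOD mice minus that in AL mice, was called for 0 of the 10 genes over 14 mice as over 15. Over 14 mice it was 0.81 for Egr4 (SE 0.37, 95% interval 0.04 to 1.58) and -0.79 for Npas4 (SE 0.37, 95% interval -1.56 to -0.03), both with an edgeR FDR of 0.9999. These were the 2 genes that passed at an unadjusted p under 0.05, against 2.59% of all genes. For Fos, Fosb, Arc and Egr2 the fitted interaction lay between -0.06 and 0.03, with standard errors from 0.41 to 0.66.

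The wider pathway was given by lists in the same tests. Of 39 other immediate-early genes, 0 were called in any of the 5 comparisons over 15 or 14 mice, and their median log2 fold change with age was -0.02 in AL and -0.07 in EOD mice over 15 mice, against -0.0096 and -0.00036 for all genes. Over 14 mice it was -0.12 in AL and -0.06 in EOD mice, against -0.0056 and 0.0041. In the average over diets 1 was called over 14 mice, Btg2 at -0.58 (SE 0.15, edgeR, FDR = 0.052), a share no larger than the 2.56% of all genes called there. Of 19 effectors, 0 were called in the 5 comparisons, and Nptx2, a pentraxin that clusters AMPA receptors, was called over 14 mice in that average at -0.29 (SE 0.079, edgeR, FDR = 0.072).

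Upstream of the 10 genes, 2 of 36 signalling and transcription factor genes were called with age in AL mice over 15 mice, against 1.09% of all genes. Camk4, a nuclear calcium-dependent kinase that phosphorylates CREB, fell by 0.43 on the log2 scale (SE 0.091, edgeR, FDR = 0.021) and Mapk3 rose by 0.30 (SE 0.077, edgeR, FDR = 0.079). Over 14 mice both were called as well, Camk4 at -0.34 (edgeR, FDR = 0.0865) and Mapk3 at 0.33 (FDR = 0.0833), against 1.03% of all genes. In EOD mice Camk4 had a log2 fold change of -0.39 over 15 mice (SE 0.098, edgeR, FDR = 0.17), which was called over 14 (-0.39, SE 0.087, FDR = 0.066), against 0.484% of all genes. Over the mean of both diets and 15 mice Mef2c, an activity-regulated transcription factor, was called too, at -0.34 (SE 0.092, edgeR, FDR = 0.073), but not over 14 mice. The share of all genes called there was 2.3% over 15 mice and 2.56% over 14.

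Lists that track the state of the animal gave few calls. Clock genes gave 0 of 16 in any comparison, and their median in young EOD against young AL mice was 0.20 over 14 mice, with 8 of 16 at an unadjusted p under 0.05, against 4.01% of all genes. Glucocorticoid and fasting response genes gave 0 of 16 over 15 mice, and over 14 mice 1, Angptl4, a secreted inhibitor of lipoprotein lipase, at -1.41 with age in EOD mice (SE 0.32, edgeR, FDR = 0.066), against 0.484% of all genes. All 16 of this list had a fitted interaction below 0 over 15 mice, against 48.5% of all genes and 9 of the 10 immediate-early genes, with a median of -0.71 against 0.0064 for all genes and 10 at an unadjusted p under 0.05, against 2.28%. Over 14 mice all 16 were again below 0, with a median of -0.67 and 9 at that p against 2.59%. The immediate-early genes had no common direction without young AL mouse 3. Arc, Egr2, Egr4, Nr4a1 and Ier2 then lay above 0, from 0.03 to 0.81, and the others below it, from -0.79 to -0.04. Heat shock genes gave 1 call of 10, Hspa1a, an inducible chaperone, at 0.80 with age averaged over diets over 15 mice (SE 0.21, edgeR, FDR = 0.069) and 0.75 over 14 (SE 0.20, FDR = 0.065). Of all genes, 2.3% and 2.56% were called there. What these lists share with the immediate-early genes in cause was not tested.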

How the data were processed

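Total RNA from 1 whole brain per mouse was sequenced (15 libraries). Per the labels and the study's methods, the authors trimmed 50-base single-end reads, aligned them with STAR to GRCm38 and counted uniquely assigned reads per gene on the reverse strand. The deposited values are raw counts, made per the file headers with featureCounts 1.5.0-p1, Ensembl release 79 and a minimum mapping quality of 5.

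From these counts, edgeR 4.0.16 (TMM scaling, 1 quasi-likelihood fit of the 4 group means) tested 15864 genes kept by filterByExpr (15687 over 14 mice), with Benjamini-Hochberg adjustment and a threshold of 0.1. CPM are TMM-scaled, and log2 CPM used a prior count of 2. Per-length levels divide CPM by the gene length in the files. Groups came from sample titles, and p-values measure the spread between mice. A table of gene names gave symbols for 42462 of 43629 gene identifiers. The step was tested on simulated counts. The alternatives were other size factors and filters, DESeq2 1.42.0, limma 3.58.1 (voom), a replicate block, lane as a covariate and leaving out each mouse.

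All 10 genes are described. From each list, genes called were named, up to 5, and otherwise those with the smallest p were available to name; further genes named by their r were chosen after their values were seen, apart from the 8 with the highest r. Members and lists were chosen with earlier results of these data known. Strand-specific counting separates antisense genes, and none of the 10 is a near-identical copy of another. Same-numbered mice did not deviate together (mean r -0.027 over 21 pairs), so the numbers do not pair the mice. Each of the 21 pairs of mice of the same group differed by more than sampling noise (chi-square per degree of freedom at least 3.01).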

Additional observations from a re-analysis of the deposited data

Results flagged for a closer look

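Arc in old EOD mouse 3 was at 30.02 CPM, against 106.6 to 115.9 CPM in the other 3 old EOD mice. The gap took up 0.892 of the group's range, above Dixon's 95% critical value for 4 samples. Among 30 groups of 4 mice tested, 10 genes in each of 3 groups, this was 1 flag, and chance flags about 1 in 20 groups. The same mouse was the lowest of its group in 8 of the 10 genes, and Fos (6.45 CPM) and Nr4a1 (16.9 CPM) were among them. The cause was not tested.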

How the results depend on the processing

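The count of called genes with all 15 mice was 0 under most settings. It kept that value in age among AL mice, diet among old mice and the interaction under every setting run. With every gene of at least 1 count tested it was 4 for age in EOD mice, 1 for diet in young mice and 5 for age averaged over diets. It was 1 for age in EOD mice when only the 2 groups compared were fitted, and 1 for age averaged over diets with limma voom. The shares of all genes called under these settings are not given here, so these counts show only that the number depends on the setting. Leaving out each mouse gave 0 to 1 for age in EOD mice and 0 to 1 for age averaged over diets, the 1 in each without young AL mouse 3. Of the 8 genes most like the 10 over 14 mice, 1 was among the 8 over all 15. The order of levels per kilobase was the same for all 10 genes when scaled by library totals. Egr2, Egr4, Npas4 and Ier2 were not tested where 10 counts were required in every mouse.

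The call of Npas4 in EOD mice over 14 mice was lost on leaving out young AL mouse 2 (FDR 0.109), young EOD mouse 1 (0.150), 2 (0.310) or 3 (0.289), old AL mouse 2 (0.115) or 3 (0.111), or old EOD mouse 2 (0.155), 3 (0.232) or 4 (0.237). It held with DESeq2 (0.0133) and limma voom (0.0762), and its fold change stayed between -1.27 and -0.99. The call averaged over diets (FDR 0.0503) ran from 0.0118 to 0.175 over these fits. Egr4 in AL mice, at FDR 0.104, was called without young AL mouse 1 (0.0206) or old AL mouse 1 (0.0885) and with RLE size factors (0.0999). Its FDR rose to 0.476 without young AL mouse 4 and 0.336 without young AL mouse 2. It was 0.315 without old AL mouse 4 and 0.242 without old AL mouse 2. With the lane as a covariate it was 0.305, and with the replicate block 0.218.

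Log2 fold changes near 0 changed sign. With the replicate block, which does not pair the mice, age in AL mice was 0.26 for Arc, diet in young mice 0.18 for Junb and 0.15 for Egr4, and diet in old mice -0.019 for Nr4a1. With the lane as a covariate these were 0.10 for Arc, 0.064 for Junb and 0.32 for Egr4. With limma voom, age in AL mice was -0.26 for Fosb and -0.17 for Junb and diet in old mice 0.14 for Egr1, and with DESeq2 age in AL mice was 0.0045 for Arc. The cause was not tested. Leaving out 1 mouse moved age in AL mice from -0.75 to 0.34 for Fos, -0.22 to 0.61 for Fosb, -0.29 to 1.01 for Junb, -0.35 to 0.74 for Arc, -0.42 to 0.027 for Egr1, -0.32 to 0.64 for Npas4, -0.62 to 0.14 for Nr4a1 and -0.67 to 0.30 for Ier2. Diet in young mice moved from -0.20 to 0.62 for Fosb, -0.45 to 0.84 for Junb, -0.50 to 0.32 for Egr4, -0.16 to 0.60 for Nr4a1 and -0.042 to 0.91 for Ier2. Diet in old mice moved from -0.17 to 0.61 for Fos, -0.093 to 0.51 for Arc, -0.20 to 0.14 for Egr1, -0.39 to 0.68 for Egr2, -0.14 to 0.32 for Nr4a1 and -0.053 to 0.20 for Ier2. Ier2 and Egr4 were counted least deeply, with medians of 19 and 25 reads per mouse.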
